A study of Mus musculus with 369 samples.

Results

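The nuclear-encoded genes of the mitochondrial respiratory chain were followed across single microglia of wild-type and Trem2 knockout mice. Members were the genes of the deposited count table whose symbol begins with Nduf followed by a, b, c, s or v and a digit, with Uqcr, with Cox4 to Cox8 or with Atp5, together with Sdha, Sdhb, Sdhc and Sdhd. This rule, which used no measured value, gave 85 of 23337 genes. By the complex of the encoded protein, 35 belonged to complex I, 4 to complex II, 8 to complex III, 20 to complex IV and 15 to complex V. The other 3 (Cox4nb, Atp5s and Atp5sl) match by name and encode no subunit. Ndufa4 and its paralog Ndufa4l2 were placed in complex IV, where the Ndufa4 protein is found. Of the 82 rows that encode a subunit, 74 are the subunits used by most tissues and 8 are isoforms known from muscle, testis, lung or cells in low oxygen.

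Complex I oxidizes NADH and complex II oxidizes succinate, and both pass the electrons to ubiquinone. Complex III hands them to cytochrome c, complex IV passes them to oxygen, and complex V (ATP synthase) uses the proton gradient built by complexes I, III and IV to make ATP. The mitochondrial genome encodes further subunits of complexes I, III, IV and V, so a complete complex needs transcripts of both genomes, and the mitochondrial ones are not analysed here. Microglia, the resident macrophages of the brain, use both respiration and glycolysis and can shift between them when they are activated.

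Microglia were sorted from the whole brain of male C57BL/6J mice, wild type or knockout, at postnatal day 7. Each well of a plate held 1 cell, whose RNA was amplified over its full length by Smart-seq2, with no molecular identifiers to count molecules. Trem2 encodes a lipid-binding surface receptor of microglia, and which part of it the knockout removes is not stated in the sources. Cells were wild type or Trem2 knockout, and each genotype was sorted through a gate of low CD45 and positive CD11b (unselected cells) or the same gate with surface Gpnmb and Clec7a added (gated cells). Of the wild-type cells, 78 of 90 unselected and 90 of 93 gated ones passed the quality call in the labels, and of the knockout cells 90 of 93 and 76 of 93. Where 4 values follow each other below, they are for the groups in this order. A group is 1 plate, the animals are not named, and it therefore counts as 1 sample. Differences between groups have no replicate check, no test was made, and effects of plate, genotype and gate cannot be told apart. Intervals (95%) reflect counting error alone, since reads amplified from a cell are not independent molecules.

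Gene counts summed to between 38971356 and 56902287 per group, and the median cell held 494746 to 697689. Trem2 itself was at 1115, 1604, 229.1 and 412.9 CPM, the counts of a gene per 1000000 gene counts of its group, so reads still mapped to it in the knockout. Markers of microglia summed to 43905, 29398, 43506 and 20896 CPM with 0 of 9 markers at 0 in any group. Markers of border-associated macrophages, the macrophages of the brain's surfaces and vessels, summed to 846, 2040, 902 and 2095 CPM. Of these 10 markers, 9 were 2-fold or more higher in gated cells of each genotype (all measured genes 15.2% and 12.4%). Markers of monocytes, neutrophils and neurons summed to 5.15 CPM or less in every group, and those of endothelium, astrocytes and the oligodendrocyte lineage to 61.7 CPM or less. Red blood cell markers summed to 115, 404, 0.826 and 4.56 CPM. After each cell was thinned to 100000 gene counts, the median cell had 2301, 2632.5, 1957 and 3456.5 detected genes. This number moved with both the gate and the genotype.

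Promoter sequence was available from RefSeq (GRCm38.p6) for 64 of the measured members, as 70 windows from 250 bases before to 50 bases after a transcription start. Windows were searched on both strands for 4 motifs described for genes of the respiratory chain: the palindromic motif of the factor NRF1, CCGGAAGT of the ETS family to which GABP belongs, AAGATGGC of YY1 and the cyclic AMP response element TGACGTCA. The NRF1 motif was in 17 windows (24.3%), compared with 10.7% of the 10897 windows of all measured genes and 4.6% of all 32851 windows. The YY1 motif was in 12 windows (17.1%), compared with 4.85% and 2.75%. The ETS motif was in 5 windows (7.14%), compared with 8.79% and 3.89%, and the cyclic AMP response element in 4 (5.71%), compared with 3.23% and 1.79%. In all, 35 windows held at least 1 of the 4 motifs (50.0%, compared with 24.8% and 11.9%), and in 0 windows did 2 of the motifs overlap. The 80 bases before the start are shown for 5 genes, on the strand of the gene, with motif letters in capitals. Sdhd and Ndufa11 show the NRF1 motif, Ndufb2 shows the cyclic AMP response element, and Ndufa1 and Ndufv3, the complex I genes that were 2-fold higher in wild-type gated cells, hold none of the 4 in these bases. Sdhd lies at chr9:50603850-50603929 (minus strand), Ndufa11 at chr17:56717682-56717761 (plus), Ndufb2 at chr6:39592485-39592564 (plus), Ndufa1 at chrX:37191239-37191318 (minus) and Ndufv3 at chr17:31520035-31520114 (plus), all outside the GENCODE M21 extent of the gene.
Sdhd: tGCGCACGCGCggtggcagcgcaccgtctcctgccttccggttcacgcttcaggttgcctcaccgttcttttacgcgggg
Ndufa11: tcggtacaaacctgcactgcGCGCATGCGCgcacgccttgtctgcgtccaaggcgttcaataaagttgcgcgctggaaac
Ndufb2: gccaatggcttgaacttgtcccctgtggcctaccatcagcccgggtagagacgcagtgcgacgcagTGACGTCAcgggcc
Ndufa1: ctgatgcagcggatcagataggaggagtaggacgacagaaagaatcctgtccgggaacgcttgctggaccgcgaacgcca
Ndufv3: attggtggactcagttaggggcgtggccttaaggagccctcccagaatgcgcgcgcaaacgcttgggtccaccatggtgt
A match is a description of these letters and was not tested as a binding site. Ndufa11, a membrane-arm subunit, was at 35.3, 44.5, 47.9 and 49.4 CPM, and Ndufb2, another, at 21.4, 22.2, 15.2 and 30.4 CPM. The levels of the other 3 are given with their complexes.

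Respiratory chain genes took a small and similar share of the transcriptome in all groups, highest in knockout gated cells. The 85 members held 0.699% (unselected) and 0.783% (gated) of summed gene counts in wild type and 0.721% and 0.898% in knockout cells. The ranges over cells overlapped in all groups: the lowest, median and highest wild-type cell had 0.272%, 0.683% and 1.52% without the marker gate and 0.353%, 0.734% and 2.19% with it. In knockout cells these values were 0.18%, 0.7% and 1.9%, and 0.398%, 0.872% and 1.36%. Complex V took the largest share in each group (0.228%, 0.25%, 0.239% and 0.289%), followed by complex I (0.191%, 0.224%, 0.208% and 0.27%). Complex IV, which reduces oxygen, separated the gates most clearly, at 0.107%, 0.147%, 0.103% and 0.152%. The summed share of complex III did not follow the gate in wild type, with 0.101%, 0.0886%, 0.0944% and 0.105%. Of its 8 genes, 5 were nonetheless higher in wild-type gated cells, while the abundant core gene Uqcrc1 was lower. Complex II held 0.0612%, 0.0646%, 0.0685% and 0.074%.

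**Figure D1:**
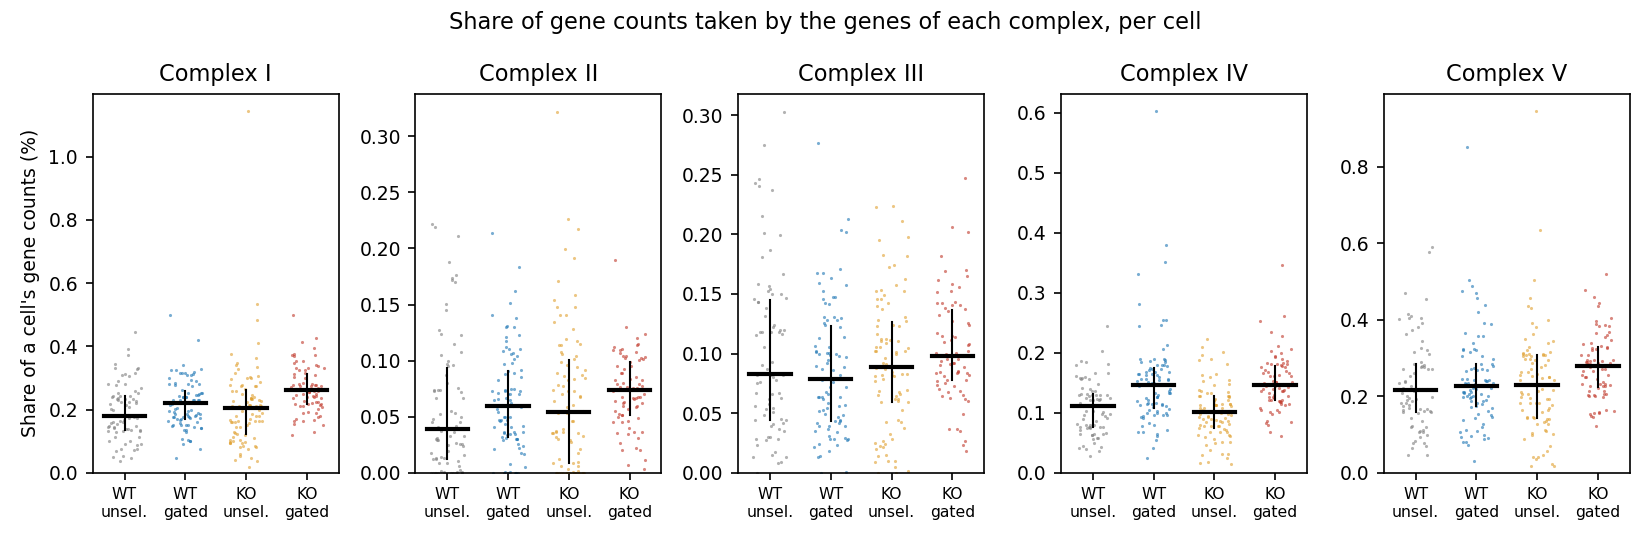
Share of each cell's gene counts taken by the genes of complexes I to V, in percent. Each point is 1 of 334 cells, thick lines are medians and thin lines span the quartiles. The medians of complex IV are 0.146% in gated cells of either genotype and 0.111% (wild type) and 0.101% (knockout) in unselected cells, with overlapping cells.

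Counted against spike-in RNA added to each well, member counts per 1000 spike-in counts were 176.1, 272.7, 129.2 and 406.7. Gated cells therefore held 1.55 times (wild type) and 3.15 times (knockout) as many member counts per spike-in count as unselected cells, while their total gene counts per spike-in count were 1.38 and 2.53 times as high. Knockout cells held 0.734 times as many as wild-type cells without the marker gate and 1.49 times as many within it, with totals at 0.71 and 1.3 times. Most of the difference per spike-in count was thus shared with the total of all genes.

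More of these genes were also detected per cell where more genes of any kind were detected. At 100000 counts the median cell had at least 1 count for 39, 53, 35 and 66 of the 85 members. Within a group, members detected and genes detected were correlated across cells at Pearson's r of 0.864 (78 cells), 0.854 (90 cells), 0.871 (90 cells) and 0.821 (76 cells), where both axes come from the same library. The share of counts was related to detected genes less closely, with r of 0.029, 0.152, 0.287 and 0.393. When 23 cells per group were drawn so that the groups had the same numbers of detected genes in bins of 500, the shares were 0.717%, 0.78%, 0.786% and 0.79%. The 2 knockout groups then differed by little, and wild-type unselected cells remained lowest.

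**Figure D2:**
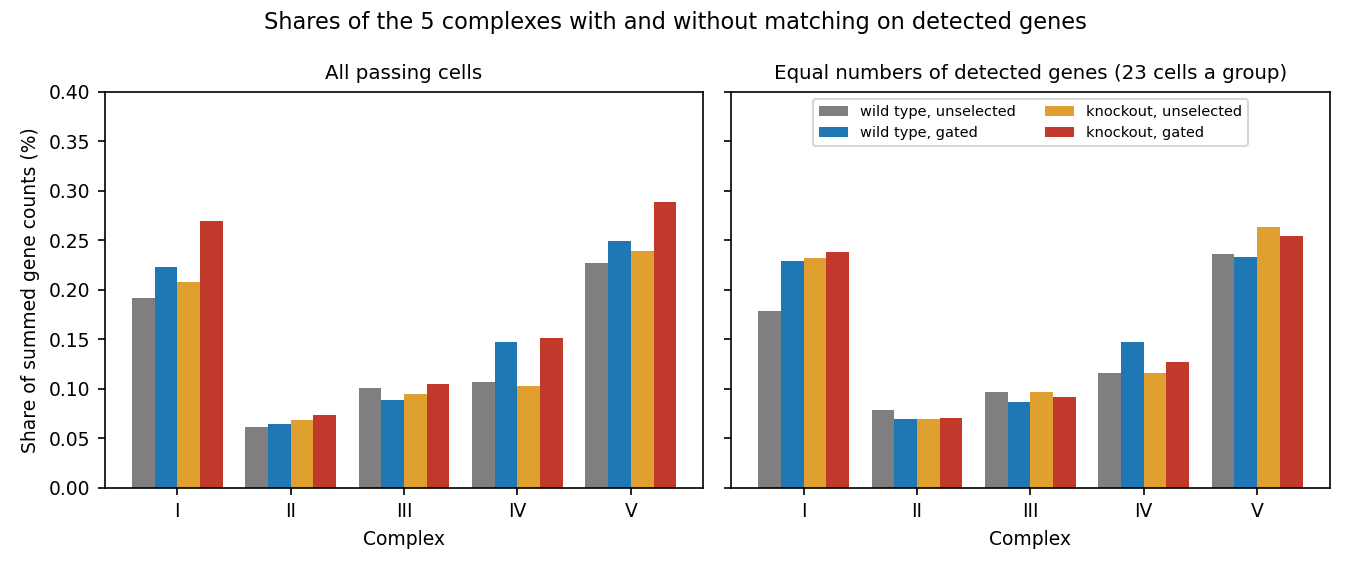
Share of summed gene counts in percent for the genes of complexes I to V, in the 4 groups. Bars on the left use all passing cells, and bars on the right 23 cells per group with equal numbers of detected genes. In matched cells complex IV was at 0.148% in wild-type gated and 0.127% in knockout gated cells, compared with 0.116% in both unselected groups.

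Differences of single genes were taken as the log2 ratio of CPM plus 1, which understates differences of genes at low levels. Members counted as measured where at least 1 group reached 5 CPM. This held for 77 of 85, and for 10554 of all genes. The 8 that were not are Ndufs5, an accessory subunit of complex I at 1.98, 2.12, 2.04 and 3.9 CPM, and the isoforms Cox4i2, Cox6b2, Cox7a1, Cox7b2, Cox8b, Cox8c and Ndufa4l2. A gene was called higher or lower when its summed counts per total lay 2-fold or more apart and the mean over cells had the same direction. This rule sets a size and tests nothing.

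The gate comparison asks how cells that carry Gpnmb and Clec7a differ from microglia sorted without these markers. In wild type the measured members were mostly a little higher in gated cells, with a median log2 difference of 0.24 and 57 of 77 above 0, while the median of all measured genes was -0.12. Only 4 were 2-fold or more higher (5.19%) and 1 was lower (1.3%), compared with 15.2% and 19.9% of all measured genes. In knockout cells the median was 0.40 with 63 of 77 above 0, and -0.26 for all genes. There 7 were 2-fold or more higher (9.09%) and 0 lower, compared with 12.4% of all genes and 22% (2320 of 10554). The number in knockout depended on the scaling and the cells. With trimmed-mean (TMM) scaling factors 17 members were higher (22.1%, all genes 16.3%), with median-of-ratios factors 13 (16.9%, all genes 15.9%), and per spike-in count 77 of 78 (98.7%, all genes 50.5%). Without cells with 3 or more border-associated macrophage markers 13 were higher (16.9%, all genes 14.3%). In wild type 4 members were higher with either set of factors (5.19%, all genes 18.1% and 17.7%) and 19 per spike-in count (24.4%, all genes 24.5%). Among the 59 members at 50 CPM or more, 3 and 6 were 2-fold higher (5.08% and 10.2%), beside 8.02% and 6.88% of all genes at that level, and 0 were lower, beside 13.7% and 17.6%. With no filter on level, the medians over all 85 were 0.19 in wild type and 0.36 in knockout.

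The shift in knockout cells moved with the number of detected genes. In the 23 cells per group with equal numbers of detected genes, the median gate difference was 0.14 in wild type and 0.03 in knockout. In knockout 4 members were 2-fold higher and 4 lower (5.13% each), compared with 20% and 30.8% of all genes. All genes then had medians of -0.08 and -0.23. Without cells that showed 3 or more border-associated macrophage markers, which left 68, 52, 74 and 16 cells, the medians were 0.32 and 0.41. Without cells with counts of the proliferation genes Mki67 or Top2a, which left 47, 70, 52 and 47 cells, they were 0.26 and 0.32.

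**Figure D3:**
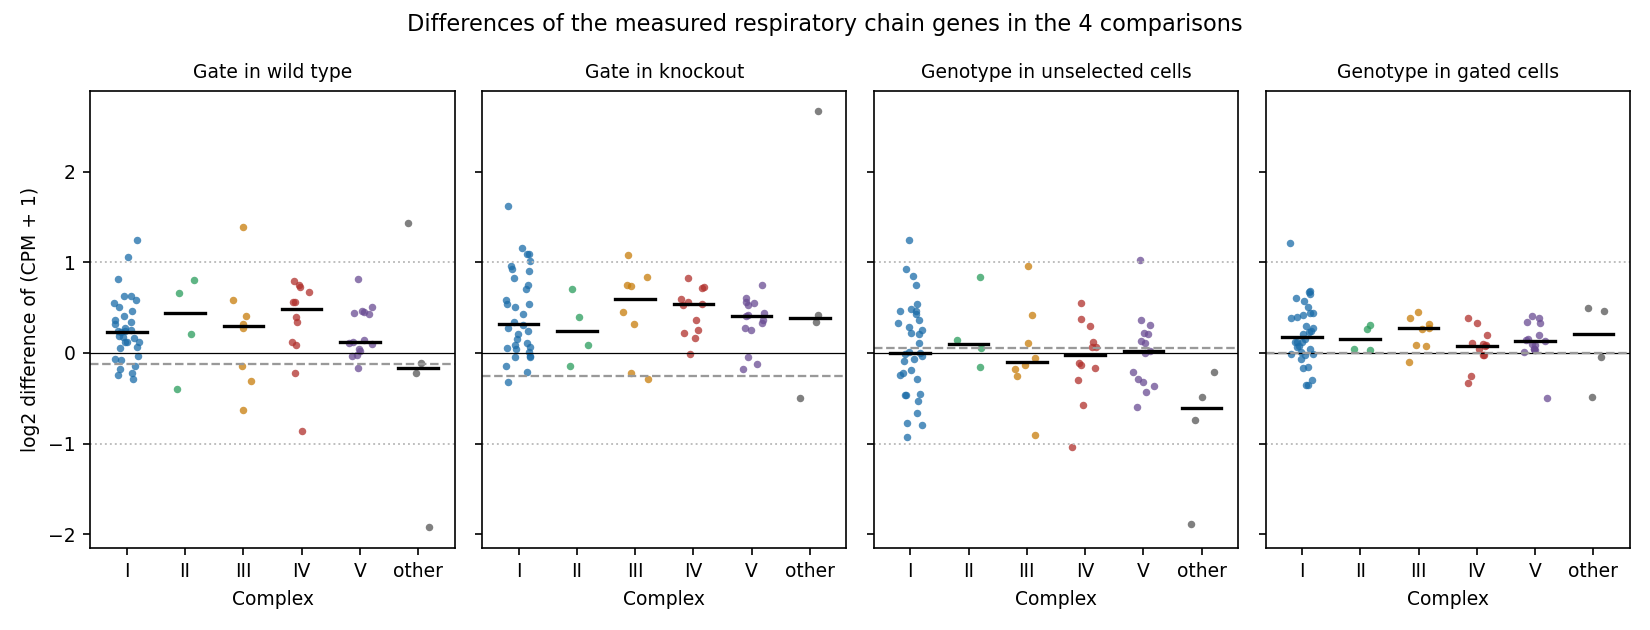
Log2 difference of CPM plus 1 for the 77 measured members in the 4 comparisons, each gated over unselected or knockout over wild type. Points are genes, black lines medians of a complex, the dashed line the median of all measured genes, and dotted lines mark 2-fold. The column "other" holds Cox6a2, Cox4nb, Atp5s and Atp5sl. In both gate panels the medians of complexes I to V lie above the dashed line.

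Complex I is built of a tip that oxidizes NADH, a module that binds ubiquinone and a membrane arm that pumps protons. Its 34 measured subunits had medians of 0.24 in wild type and 0.32 in knockout gated cells. Ndufa1, a small membrane-arm subunit encoded on the X chromosome, was the only one of the 73 measured subunits of most tissues 2-fold higher in gated cells of both genotypes (the rare isoform Cox6a2, described with the isoforms, was the other member), at 26.1, 55.5, 30.2 and 65.3 CPM (log2 1.06 and 1.09). Its groups separated by gate and hardly by genotype. It was detected after thinning in 44.9% (33.6 to 56.6), 74.4% (64.2 to 83.1), 48.9% (38.2 to 59.7) and 94.7% (87.1 to 98.5) of cells, and without thinning in 56.4%, 81.1%, 53.3% and 96.1%. In cells with equal detected genes its gate difference was 1.40 in wild type and 0.43 in knockout.

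Ndufv3, an accessory subunit of the NADH-oxidizing tip, was at 32.9, 79.2, 45.6 and 61.7 CPM, with gate differences of 1.24 in wild type and 0.43 in knockout. Its neighbour at the tip, the iron-sulfur subunit Ndufv2, was at 47.7, 84.7, 67.2 and 113.2 CPM (0.82 and 0.74). Ndufv1, which binds NADH and the flavin, was at 60.6, 84, 110.2 and 88 CPM, higher in gated cells of wild type (0.46) and lower in those of knockout (-0.32). These 3 subunits of the tip thus did not share a pattern.

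In knockout cells 5 of the 34 complex I subunits were 2-fold or more higher with the gate, a share near the 12.4% of all measured genes. Ndufa10, a matrix-side subunit of the membrane arm, was at 90.4, 102.1, 51.7 and 160.7 CPM, a log2 difference of 1.62 in knockout and 0.17 in wild type. Ndufs3, a core subunit of the ubiquinone module, was at 58.9, 63.9, 30.6 and 69.5 CPM (1.16 and 0.11). Ndufs7, which carries the last iron-sulfur cluster before ubiquinone, was at 91.6, 83.1, 66.1 and 134.4 CPM (1.01 and -0.14). Ndufb9, an accessory subunit of the membrane arm, was at 82.8, 78.5, 48 and 103.5 CPM (1.09 and -0.08), and the fifth was Ndufa1. For Ndufa10, Ndufs3, Ndufs7 and Ndufb9 the knockout unselected group was the lowest of the 4, and the 2 wild-type groups lay close together. Ndufs3 has a near-identical copy elsewhere in the annotation, and how reads were assigned between copies is not stated in the sources. By contrast Ndufa13, also known as Grim19, was almost level at 85.2, 83.1, 84.2 and 82.4 CPM.

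**Figure D4:**
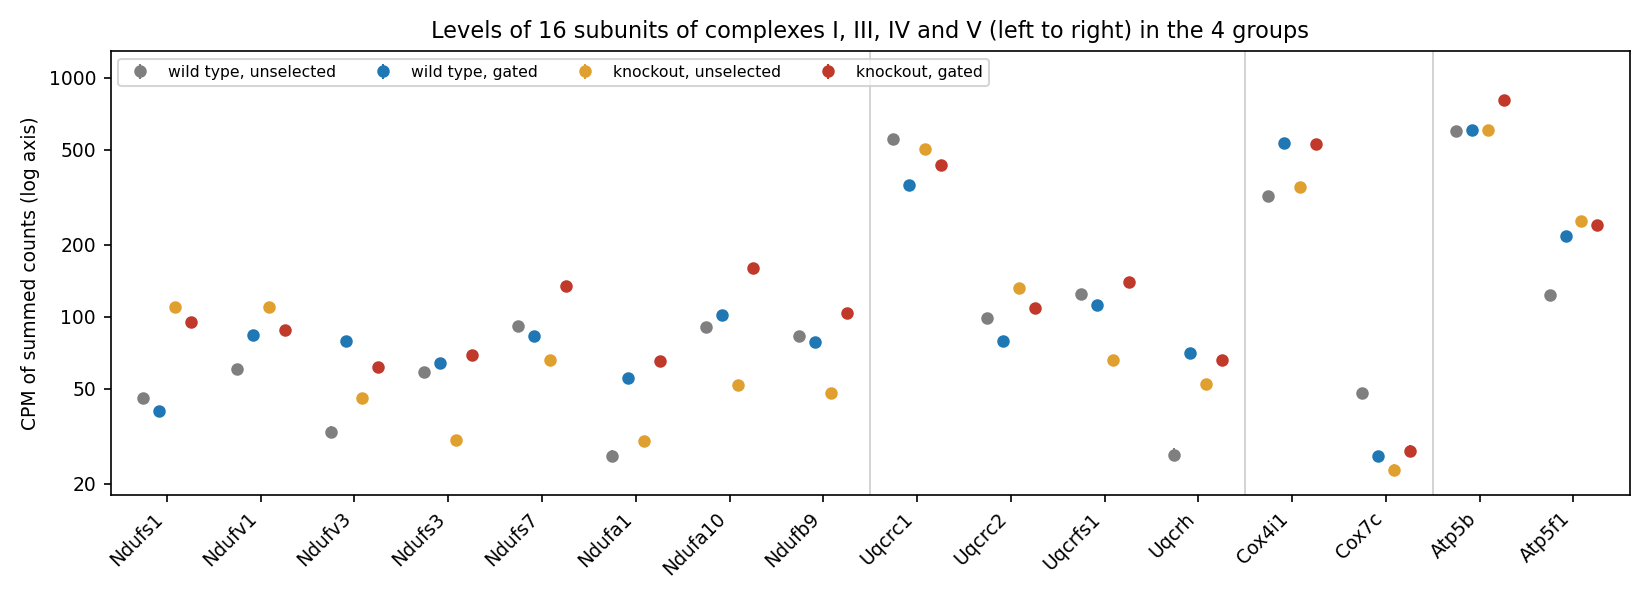
CPM of summed counts on a log axis for 16 subunits of complexes I, III, IV and V in the 4 groups, with exact Poisson intervals that are mostly smaller than the points. Ndufa1 and Cox4i1 separate by gate, Ndufs1 by genotype (45.8 and 40.4 CPM in wild type, 110.3 and 95.1 CPM in knockout), and Uqcrh, Atp5f1 and Cox7c set wild-type unselected cells apart.

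Complex II is the enzyme that oxidizes succinate in the citrate cycle and is encoded by the nuclear genome alone. Its membrane anchors were higher in gated cells of both genotypes, Sdhc at 49.8, 87.5, 55 and 90.1 CPM (0.80 and 0.70) and Sdhd at 90.6, 143.8, 162.5 and 172.5 CPM (0.66 and 0.09). The iron-sulfur subunit Sdhb was at 142.7, 165.5, 127.8 and 169 CPM (0.21 and 0.40). Sdha, the flavoprotein with the succinate site, was lower in gated cells at 328.5, 249.1, 339.8 and 308.4 CPM (-0.40 and -0.14). None of the 4 reached 2-fold in either genotype.

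Within complex III the small subunits and the large core proteins lay on opposite sides of 0. All 5 accessory subunits were higher in gated cells of both genotypes, with medians of 0.40 and 0.74. Uqcr10 was at 31.6, 47.7, 34.1 and 57.4 CPM, Uqcr11 at 60.4, 80.2, 50.5 and 85.5 CPM, and Uqcrb, whose protein binds ubiquinone and whose transcript has 3 near-identical copies, at 60.6, 75.7, 58.1 and 79.9 CPM. The 2 core proteins of the matrix side were lower in gated cells of both genotypes: Uqcrc1 was at 553.6, 358, 505.8 and 434 CPM (-0.63 and -0.22), and Uqcrc2 at 99.2, 79.5, 132.5 and 108.7 CPM (-0.32 and -0.28). Neither core protein reached 2-fold. Uqcrh, the hinge protein beside cytochrome c1, had the largest gate difference in wild type among the 73 measured subunits of most tissues, 1.38, at 26.5, 70.6, 52.4 and 65.9 CPM, and 0.32 in knockout, because the wild-type unselected group was low. Uqcrfs1, the Rieske iron-sulfur protein that takes electrons from ubiquinol, showed the opposite arrangement at 124.2, 112, 65.6 and 140 CPM (-0.15 and 1.08), with a low knockout unselected group.

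Nuclear subunits of complex IV had the highest median gate difference of the 5 complexes in wild type (0.48) and 0.54 in knockout, with 10 and 11 of 12 above 0. Cox4i1, the broadly expressed form of subunit 4, was at 320.9, 533.3, 348.7 and 526.7 CPM (0.73 and 0.59), so that its gated groups lay together above its unselected groups. The matrix subunit Cox5a was at 59.9, 101.5, 73.9 and 109.1 CPM (0.75 and 0.56), the zinc-binding Cox5b at 42.8, 63.7, 44.8 and 65.8 CPM (0.57 and 0.54), and the membrane subunit Cox6c at 77.4, 115.1, 68.9 and 113.7 CPM (0.57 and 0.72). These 4 subunits were thus 1.5- to 1.7-fold higher in gated cells of each genotype, short of 2-fold. Cox7c, a membrane subunit whose transcript has a near-identical copy, was the exception at 48, 26, 22.9 and 27.5 CPM (-0.86 in wild type, 0.26 in knockout), with wild-type unselected cells above the other 3 groups. Ndufa4 was almost level at 58.2, 49.8, 53.1 and 52.8 CPM. In cells with equal detected genes the medians of complex IV were 0.21 and 0.09, while those of complex I were 0.33 and 0.06.

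Of complex V, the catalytic head was close to level in wild type and somewhat higher in knockout gated cells. Atp5a1 (subunit alpha) was at 658.2, 647.1, 566.5 and 687.5 CPM (-0.03 and 0.28), and Atp5b (subunit beta, with the catalytic sites) at 600.1, 607.6, 608.4 and 805.2 CPM (0.02 and 0.40). The outer stalk, which holds the head still, had medians of 0.47 and 0.43. Its subunit b, Atp5f1, was at 123.3, 218.2, 250.9 and 243.4 CPM (0.82 and -0.04), again with wild-type unselected cells apart from the other 3 groups. Atp5o, whose protein joins the stalk to the head and whose transcript has a near-identical copy, was at 88.6, 120.2, 102.8 and 157 CPM (0.44 and 0.61). The 15 genes had medians of 0.12 and 0.40, and none reached 2-fold.

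The 2 gate comparisons share no cells. Of the 77 measured members, 51 (66.2%) were above 0 in both and 8 (10.4%) below 0 in both, compared with 21.8% and 38.6% of all measured genes. Across members the sizes were weakly related, with a Pearson r of 0.323 and a Spearman rho of 0.302. Across genes, which are not independent replicates, the same values for all 10554 were 0.251 and 0.251. The difference of the gate differences, knockout minus wild type, had a median of 0.17 with 49 of 77 above 0, and -0.09 over all genes. It was lowest for Uqcrh (-1.06), Atp5f1 (-0.86) and Ndufv3 (-0.82), and highest for Atp5s (2.34), Ndufa10 (1.44), Cox6a2 (1.23) and Uqcrfs1 (1.23). In cells with equal detected genes its median turned to -0.24, so the direction of this median depended on which cells were compared.

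**Figure D5:**
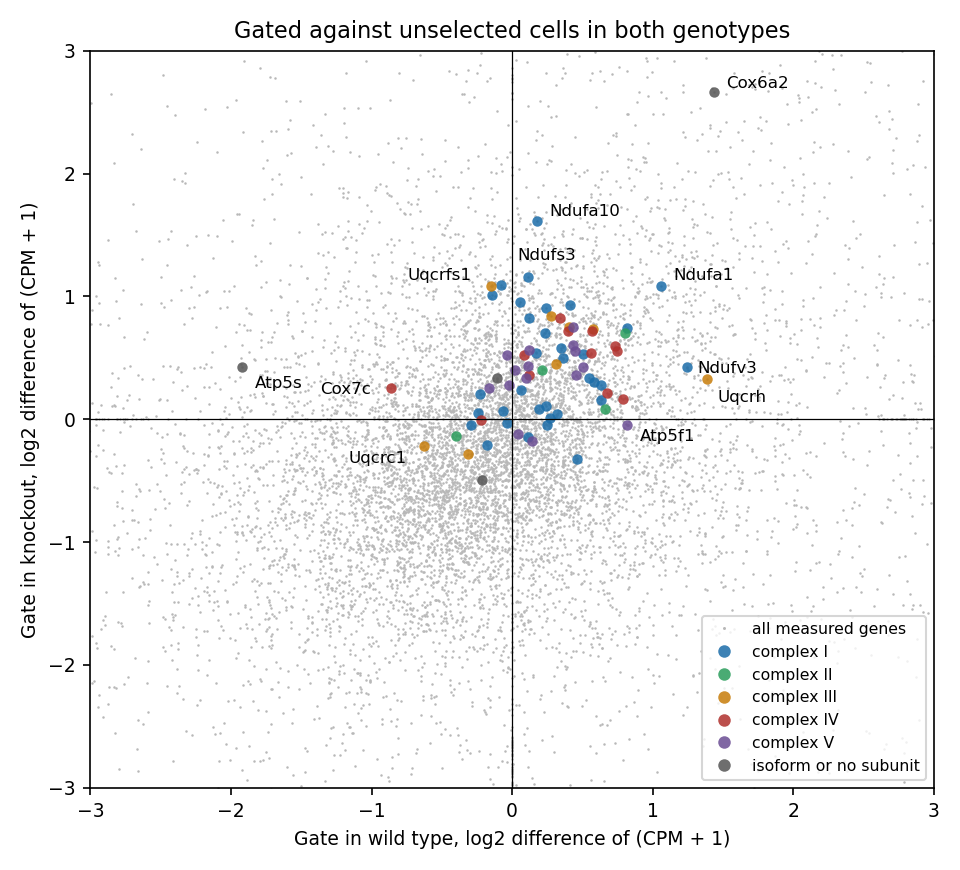
Log2 gate difference of CPM plus 1 in wild type (horizontal) and knockout (vertical), for the 77 measured members by complex and for all measured genes within the axes in grey. Most members lie in the upper right (51 of 77), with Uqcrc1 in the lower left, and Ndufa10, Ndufs3 and Uqcrfs1 near 0 in wild type and above 1 in knockout.

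The genotype comparison sets knockout cells against wild-type cells within each gate, where genotype cannot be told apart from plate. In unselected cells the measured members were centred on 0 in knockout relative to wild type, with a median of -0.01, 38 of 77 above 0, and 0.05 for all genes. There 2 were 2-fold or more higher (2.6%) and 2 lower (2.6%), compared with 16.5% and 13.3% of all genes. Within the marker gate the median was 0.12 with 60 of 77 above 0, while the median of all genes was 0.0. Only 1 member was 2-fold higher there (1.3%) and 0 lower, compared with 11.4% of all genes and 12% (1275 of 10554). Among members at 50 CPM or more, 2 and 1 were 2-fold higher (3.39% and 1.69%), beside 7.97% and 4.47% of all genes at that level, and 0 were lower, beside 5.23% and 5.47%. Per spike-in count 0 and 4 members were higher in knockout (0.0% and 5.13%, all genes 9.59% and 20.2%). On that scale 8 and 0 were lower (10.3% and 0.0%, all genes 22.3% and 8.37%). In cells with equal detected genes the medians were 0.13 and 0.01, which reverses the sign of the first and brings the second near 0.

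Ndufs1, the large subunit that carries several iron-sulfur clusters of the electron path through complex I, was the only member 2-fold higher in the knockout under both gates. Wild-type levels were 45.8 CPM (43.7 to 48) in unselected and 40.4 CPM (38.7 to 42.1) in gated cells, and knockout levels 110.3 (107.6 to 113) and 95.1 (92.4 to 97.8), log2 differences of 1.25 and 1.21. The knockout groups lay above both wild-type groups, and the gate differences were small (-0.18 and -0.21). Detection after thinning was 25.6% (16.4 to 36.8), 17.8% (10.5 to 27.3), 31.1% (21.8 to 41.7) and 51.3% (39.6 to 63) of cells, and 35.9%, 25.6%, 34.4% and 61.8% without thinning. The intervals of the 2 unselected groups overlapped. They cover counting error alone and cells are not replicates, so a difference in the share of expressing cells was not tested. The single cell with most counts held 26%, 20.3%, 12.6% and 8.17% of the group's Ndufs1 counts, and without that cell in each group the differences were 1.48 and 1.41. Over 16 other settings the difference within the marker gate stayed at 1.05 or more, and that in unselected cells ranged from 0.76 on the spike-in scale to 2.58 in cells with equal detected genes. The settings that change the minimum CPM or use subunits alone could not change the Ndufs1 differences.

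Other genotype differences were mostly seen under 1 gate. In unselected cells Atp5f1 was 2-fold higher in knockout (1.02, but 0.16 in gated cells), and Ndufb6, a membrane-arm subunit, was at 25.1, 30.5, 48.7 and 49 CPM (0.93, and 0.67 in gated cells). Uqcrh was 0.96 higher in unselected and 0.10 lower in gated cells. Cox7c (-1.04) and Atp5s (-1.88), first named as a coupling factor of complex V, were the 2 members 2-fold lower in knockout unselected cells. Ndufs3 (-0.92), Uqcrfs1 (-0.91), Ndufa10 (-0.79) and Ndufc2, a membrane-arm subunit at 59.1, 64.3, 37.1 and 66.5 CPM (-0.66), followed. The NADH-oxidizing tip as a module had a median of 0.46 in unselected knockout cells, with 8 of 10 genes above 0, and the other modules of complex I were at -0.13 (ubiquinone module) and -0.06 (membrane arm). In gated cells Ndufs7 (0.69), Ndufb6 (0.67), Ndufa10 (0.65) and Ndufs6, a zinc-binding subunit of the tip at 31.1, 36.8, 29.7 and 56.4 CPM (0.60), came next after Ndufs1. The lowest there were Ndufv3 (-0.36), the membrane-arm subunits Ndufa3 (-0.35) and Ndufb11 (-0.30), and Cox7a2l, placed here in complex IV (-0.34). The unselected and gated genotype comparisons share no cells, and across the 77 members their sizes were related with a Pearson r of 0.129.

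Several values stood close to the 2-fold line and rest on it. Ndufs7 in knockout gated cells (2.02-fold) and Atp5f1 in knockout unselected cells (2.03-fold) lay just past it, and Ndufb2 in knockout gated (1.94-fold) and Uqcrh in knockout unselected cells (1.94-fold) just short of it. Atp5s was at 16.9, 3.74, 3.87 and 5.53 CPM, was detected after thinning in 14.1%, 11%, 4.44% and 15.8% of cells, and had 30.5% of its wild-type unselected counts in 1 cell. In cells with equal detected genes its genotype difference in unselected cells was 0.49 in place of -1.88.

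Isoforms of other tissues were rare. Cox7b2, Cox8b, Cox8c and Ndufa4l2 had 0 counts in all 334 cells. Cox7a1, the heart and muscle isoform of subunit 7a, had 0 counts in both unselected groups and 0.986 and 2.12 CPM in gated cells of wild type and knockout, from 9 and 16 cells. With 3 counts per group set as the limit for a count of 0, the ratios to that limit were 12.8 and 40.2. The limit covers counting error alone. These ratios are not lower bounds of a difference between groups, since the reads of a cell are not independent molecules. The broadly expressed Cox7a2 was at 32.4, 52.3, 47.9 and 55.9 CPM in the same groups. Cox6a2, the heart and muscle isoform of subunit 6a, followed the gate in the same way at 1.1, 4.69, 0.264 and 7.01 CPM (1.44 and 2.66), in 1.28%, 10%, 1.11% and 17.1% of cells after thinning and 3.85%, 12.2%, 1.11% and 25% without. Without cells with 3 or more border-associated macrophage markers, Cox6a2 had 0 counts in both knockout groups (74 unselected and 16 gated cells), so its knockout difference was gone, and 1.27 and 5.77 CPM in wild type. Cox7a1 was at 1.19 and 1.26 CPM in the gated cells of wild type and knockout that remained. A single cell held 86%, 32.1%, 100% and 13.8% of all Cox6a2 counts, and in wild-type cells with equal detected genes its gate difference was -2.04. Its common counterpart Cox6a1 was at 74.4, 79.1, 68.9 and 99.7 CPM. Cox4i2, the isoform of lung and low oxygen, came from 1 knockout unselected cell with 96 counts and from 2 knockout gated cells, and Cox6b2, the testis isoform, was at 0.821, 0.595, 2.44 and 0.693 CPM. The 3 genes for subunit c of the rotor ring, which encode the same mature protein, were at 65.9, 68, 81.5 and 75.1 CPM (Atp5g1), 22.5, 20.1, 17.8 and 21.5 CPM (Atp5g2) and 55.2, 60, 40.7 and 60.5 CPM (Atp5g3).

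Levels were compared between genes per length, as the mean CPM of the 4 groups per kilobase of annotated exon. The 73 measured subunits had a median of 42.9 CPM per kilobase, compared with 5.74 over 10461 measured genes with a length, and 70 of 73 lay above that value. Over these 10461 genes CPM was not related to exon length (Spearman rho 0.004). Dividing by length therefore raises short genes relative to long ones, and the excess of the subunits depends on this measure. By complex the highest and lowest were Ndufa1 (106) and Ndufb4 (2.8) in complex I, Sdhd (116) and Sdhc (21.7) in complex II, Uqcrc1 (112) and Uqcrq (32.7) in complex III, Cox4i1 (279) and Cox6c (26.3) in complex IV, and Atp5a1 (204) and Atp5l (4.33) in complex V. The subunits of 1 complex, which are assembled together, therefore differed from 3.42-fold (complex III) to 47.1-fold (complex V) in this measure. Part of that spread lies in the measure. Atp5l has 9 near-identical copies and 11 subunits have at least 1, and per kilobase of the principal transcript the highest and lowest become Ndufb8 (212) and Ndufb2 (5.1), Sdhb (132) and Sdhc (22.3), Uqcrc1 (280) and Uqcrq (39.4), Cox4i1 (565) and Cox7b (34), and Atp5b (342) and Atp5g1 (15.4). Across the 73 subunits CPM was higher for longer principal transcripts (Spearman rho 0.441), and the 2 measures per kilobase were related with a rho of 0.788. CPM per kilobase of exon was lower for subunits with longer exons in total (rho -0.407). Of these transcripts 42 are shorter than 1000 bases, and the recovery of short RNAs in these libraries was not tested.

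Across cells of a group the complexes moved together to a moderate degree. The shares of complexes I and IV were correlated at Pearson's r of 0.344, 0.361, 0.522 and 0.603 (78, 90, 90 and 76 cells), and those of complexes I and V at 0.379, 0.513, 0.469 and 0.573. Complexes IV and V were related less evenly, at 0.137, 0.268, 0.624 and 0.331. The shares of a cell come from the same library and the same total, and they also differ in precision with the number of genes detected in it.

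Genes around the chain were read from lists of pathway members by the same rule of size. For each count below, the shares of all measured genes that were 2-fold higher and lower with the gate were 15.2% and 19.9% in wild type and 12.4% and 22% in knockout. Of 21 measured glycolytic genes, 15 were higher (71.4%) and 0 lower in knockout gated cells (median 1.42). In wild type 3 were higher (14.3%, near the share of all genes) and 1 lower, with a median of 0.60. The lactate exporter Slc16a3 was at 264.4 CPM in gated against 50.4 CPM in unselected knockout cells (2.37), and triosephosphate isomerase Tpi1 at 883.4 against 253.7 CPM (1.80). Respiratory chain members in the same comparison had a median of 0.40 with 7 of 77 at 2-fold. Citrate cycle and pyruvate dehydrogenase genes had gate medians of -0.12 and 0.07 (21 measured, 2 higher and 2 lower in wild type, 0 higher and 1 lower in knockout).

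Several other lists lay nearer 0 than the chain in both gate comparisons. Mitochondrial ribosomal proteins had gate medians of 0.0 and 0.07 (76 measured, 9 higher and 6 lower in wild type, 6 and 6 in knockout). Assembly factors of the complexes had -0.03 and -0.04 (43 measured, 3 higher and 5 lower, and 7 higher and 4 lower). Carriers, porins and import proteins had 0.01 and 0.06 (22 measured, with 0 and 1 higher and 0 lower in either). The 11 chain and carrier genes outside the naming rule had -0.08 and 0.18: among knockout cells cytochrome c (Cycs) was at 27.3 CPM in gated and 15.2 CPM in unselected ones (0.80), and 2010107E04Rik, which encodes a small subunit of complex V, at 50.6 and 20.3 CPM (1.28). Cytosolic ribosomal proteins, a reference of short and abundant transcripts, had 0.07 and 0.15 (79 measured, 0 higher in either, 0 and 1 lower). In the genotype comparison within the marker gate, glycolysis had a median of 0.79, with 5 higher (23.8%, all genes 11.4%) and 1 lower, and the chain 0.12.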

How the data were processed

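The authors deposited raw counts per gene for 369 single cells, made with HTSeq, Picard, STAR 2.5.3a and Trim Galore 0.4.3 on mm10, per the submitters' processing notes. Which annotation was counted, and whether by strand, is not given in the sources here. Group, plate and quality calls came from the labels, all per-cell columns were matched to a sample by title, and 92 spike-in RNAs were kept out of library sizes. The table lists 0 genes of the mitochondrial genome by name.

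Counts of the 334 passing cells were summed per group and expressed per 1000000 summed gene counts (CPM), with Poisson intervals that are exact. Shares of cells have Clopper-Pearson intervals and use cells thinned to 100000 gene counts (seed 7), a depth that 0 passing cells lay below. Intervals and floors cover counting error only. No test was made, because cells are not replicates and each group is 1 sample. No doublets were called, since each well was sorted to hold 1 cell. The functions were tested on simulated data with known differences.

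Named members were, in each of the 4 comparisons, the 4 highest and 4 lowest among those at 20 CPM or more in the higher group and detected in 25% of its cells, the highest and lowest per kilobase in each complex, paralogous isoforms and catalytic subunits. From each pathway list, up to 4 genes with the largest differences could be named. Other members named were chosen after their values were seen. The members and all lists were chosen with earlier results of these data known. Exon lengths and positions came from GENCODE M21. Near-identical copies are annotated transcripts with 95% identity over 50% of the length (blastn 2.17.0). Trimmed-mean factors came from edgeR 4.0.16 and other values from numpy 2.4.6, pandas 2.3.3 and scipy 1.17.1. Alternatives changed the level, scaling, pseudocount, filter or cells, and 2 of 16 were chosen after seeing the data.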

Additional observations from a re-analysis of the deposited data

How the results depend on the processing

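Each median, count and share was recomputed under 16 other settings, of which 2 were chosen after seeing the data (subunits alone, and leaving out for each gene the cell with most counts in each group). Comparisons are given in the order gate in wild type, gate in knockout, genotype in unselected cells, genotype in gated cells, and shares in the order of the groups. Of the recomputed summaries 172 stayed close, 82 moved further and 2 reversed. Those that stayed close include shares under other pseudocounts and filters on level, which could not change them. For a median, close means within the median half-width of the counting intervals of single members, which is not the error of the median. For the difference of gate differences the limits of the 2 gate medians were added. For a share, close means within counting error, and for a number of genes within 1.5 times. Values not mentioned under a setting were close. No paired analysis was possible because the samples carry no replicate numbers and each group is 1 sample.

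Scaling moved all genes together. With trimmed-mean (TMM) factors the gate medians were 0.410 and 0.671. Then 17 members were 2-fold higher with the gate in knockout (22.1%, all genes 16.3%), and 1 was higher in knockout unselected cells (1.3%, all genes 15.3%). With median-of-ratios factors the gate medians were 0.387 and 0.648, with 13 and 1 members higher (16.9% and 1.3%, all genes 15.9% and 15.1%). Relative to the median of all genes the 2 gate medians were 0.36 and 0.66 as reported, 0.38 and 0.67 with TMM and 0.38 and 0.66 with median-of-ratios factors. On the spike-in scale all-gene medians were 0.32, 1.01, -0.39 and 0.35, and the members' medians 0.687, 1.704, -0.487 and 0.499, or 0.37, 0.69, -0.10 and 0.15 relative to them. There 19, 77, 0 and 4 members were 2-fold higher (24.4%, 98.7%, 0.0% and 5.13%, all genes 24.5%, 50.5%, 9.59% and 20.2%). In knockout unselected cells 8 were lower (10.3%, all genes 22.3%), and the difference of gate differences was 1.029.

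In 23 cells per group with equal numbers of detected genes the medians were 0.145, 0.034, 0.125 (a reversal) and 0.013. The difference of gate differences turned to -0.236. Members 2-fold higher were 4 in knockout gated (5.13%, all genes 20%), 8 in knockout unselected relative to wild type (10.3%, all genes 25.6%) and 2 in gated cells (2.56%, all genes 22.4%). Those lower were 3, 4, 4 and 3 (3.85%, 5.13%, 5.13% and 3.85%, all genes 28.2%, 30.8%, 21.2% and 23.3%). The shares of counts were 0.717%, 0.780%, 0.786% and 0.790%. The cause was not tested, and few cells remain there. Among members at 2-fold, Cox6a2 in wild-type gated cells turned to -2.040 and Atp5s in knockout unselected cells to 0.490.

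Without cells with 3 or more border-associated macrophage markers the wild-type gate median was 0.318. Then 13 members were higher and 1 lower in knockout gated cells (16.9% and 1.3%, all genes 14.3% and 31%). In knockout unselected cells 4 and 4 were (5.19% each, all genes 18.4% and 15.1%). In the genotype comparison of gated cells 2 and 1 were (2.6% and 1.3%, all genes 17.4% and 23.1%). Shares of counts were 0.683%, 0.796% and 0.919% (wild-type unselected, wild-type gated, knockout gated). Without Mki67 or Top2a cells the knockout gate median was 0.315 and that of genotype in gated cells 0.051. Then 3 members were lower in wild-type gated cells (3.9%, all genes 20.2%). In knockout unselected cells 6 were higher and 6 lower (7.79% each, all genes 22.1% and 18.2%). In knockout relative to wild-type gated cells 1 was lower (1.3%, all genes 15.9%). Shares of counts were 0.692%, 0.770%, 0.691% and 0.834%.

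By mean CPM per cell 2 and 1 members were higher in wild-type gated and knockout unselected cells (2.6% and 1.3%, all genes 14.8% and 17.3%). Shares of counts were 0.708%, 0.772%, 0.714% and 0.883%. With a pseudocount of 5 CPM these counts were 2 and 1 (2.6% and 1.3%, all genes 10.5% and about 12%). Then 1 was lower in knockout unselected cells (1.3%, all genes 9.16%). At a minimum of 20 CPM, 0 were lower in wild-type gated and 1 in knockout unselected cells (0.0% and 1.37%, all genes 17.8% and 9.63%). With no filter 2 were lower in knockout gated cells (2.35%, all genes 12%). With quality calls not used 1 was lower in knockout unselected cells (1.3%, all genes 12.9%), and shares of wild type were 0.692% and 0.780%. Thinned cells gave shares of 0.708%, 0.765%, 0.717% and 0.887%. Without the cell of each group with most member counts 1 was lower in knockout unselected cells (1.3%, all genes 13.4%). Shares of counts were 0.684%, 0.764%, 0.706% and 0.892%. With subunits alone 0 and 1 were lower in wild-type gated and knockout unselected cells (0.0% and 1.37%, all genes 19.9% and 13.3%). Shares of counts were 0.688%, 0.773%, 0.713% and 0.889%. Of the 17 differences at 2-fold, those of Uqcrh (wild-type gated), Ndufa10 and Ndufs3 (knockout gated) and Ndufs1 (gated genotype) stayed past 2-fold in 16 of 16 settings, and the others in 9 to 15. These counts include settings that could not change the difference of a gene. The minimum of 20 CPM, no filter and subunits alone change only which members are listed.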

Other observations

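Genes that control mitochondrial number and transcription had gate medians of -0.44 in wild type and -0.38 in knockout, below 0 like the medians of all measured genes (-0.12 and -0.26). Of 18 measured, 0 were 2-fold higher and 6 lower in wild type (33.3%, all genes 19.9%). In knockout 4 were higher and 4 lower (22.2% each, all genes 12.4% and 22%), and 66.7% were below 0. Nrf1, which encodes the factor of the NRF1 motif, was at 160.8 CPM in knockout unselected cells, 44.3 CPM in wild-type unselected and 32.7 CPM in knockout gated cells. Of its wild-type unselected counts 32.3% came from 1 cell. Tfam, which packages and transcribes the mitochondrial genome, was at 12.8 CPM in gated against 1.62 CPM in unselected knockout cells (log2 2.39), and 55.4% of its counts in the latter came from 1 cell.

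Genes of mitochondrial shape and removal had medians of 0.29 and 0.09 with the gate (12 measured). In wild type 2 were higher and 2 lower (16.7% each, all genes 15.2% and 19.9%). In knockout 1 was higher and 0 lower (8.33% and 0.0%, all genes 12.4% and 22%). The mitophagy receptor Bnip3 was at 320.8 CPM in gated against 92.6 CPM in unselected knockout cells (1.78), and at 136.9 CPM in wild-type gated cells. The mitophagy kinase Pink1 was at 34.8 CPM in wild-type unselected and 103.2 CPM in wild-type gated cells (1.54). Uncoupling and antioxidant genes had medians of 0.49 and 0.33 (10 measured). In each genotype 1 was higher and 0 lower (10.0% and 0.0%), beside the same shares of all genes. Sod2, the manganese superoxide dismutase of the matrix, was at 32.7 CPM in wild-type unselected and 105.7 CPM in knockout unselected cells (1.66), with 32% of the wild-type counts in 1 cell.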
